A study of Mus musculus with 6 samples.

Results

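The mitochondrial ribosomal proteins described here are the 77 protein-coding mouse genes whose symbol starts with Mrpl or Mrps and a digit and that had at least 60 counts summed over the 6 libraries, out of 25044 genes in the table. By their symbols, 48 belong to the large subunit and 29 to the small subunit of the mitochondrial ribosome. One further gene of the family, Mrpl53, had 1 count and was left out, and 695 of its 790 exon bases lie in exons of other genes. The cells were peritoneal macrophages of wild type C57BL/6 mice aged 8 weeks, collected 3 days after thioglycollate had been injected to recruit monocytes, which become macrophages there. After 1 h of adherence and 24 h of culture, the vehicle group received DMSO and the trametinib group 100 nM trametinib, which blocks MEK1 and MEK2, the kinases upstream of ERK. Both groups then received LPS, a bacterial ligand of the receptor TLR4, at 100 ng/ml, 2 h later and for 12 h. Each group had 3 libraries of total RNA depleted of ribosomal RNA, named vehicle 1 to 3 and trametinib 1 to 3 below, and there was no culture without LPS.

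The mitochondrial ribosome translates the few messenger RNAs that the mitochondrial genome encodes, all for subunits of the respiratory chain and the ATP synthase. Its ribosomal RNAs come from the mitochondrial genome, whereas its proteins are encoded in the nucleus, made in the cytosol and imported. The large subunit forms peptide bonds and is attached to the inner membrane, and the small subunit binds the messenger RNA and decodes it. Many of the proteins have bacterial homologues and others are found only in mitochondria. In macrophages, LPS is known to lower respiration and to raise glycolysis.

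Libraries held 17453778 to 19648467 counts, and members held 335 (Mrps28) to 4524 (Mrpl24) counts over the 6 libraries. Levels are given as CPM, counts scaled to sequencing depth with TMM-adjusted library sizes. The 8 macrophage markers summed to 15780 to 17560 CPM with vehicle and to 14770 to 16400 CPM with trametinib, and 4 of them changed. The summed markers of large peritoneal macrophages, neutrophils, eosinophils with mast cells, T with NK cells, and fibroblasts with mesothelium stayed at or below 7.69 CPM in every library, with Retnlg, Mcpt4 and Msln at 0 counts. The study mentions 3 injected mice and does not tie libraries to mice, so the 6 libraries cannot stand for 6 mice, and p values measure only the spread between these samples.

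Promoter sequences were taken for 68 of the 77 members from RefSeq (build GRCm38.p6), as windows of 250 bases before and 50 bases after each start. The 250 bases before the start of Mrpl52 are shown whole, because this large-subunit gene was among the members that fell most and no annotated exon lies in that stretch (chr14:54426659-54426908, plus strand). The capitals mark a match to the ETS core, the letters CCGGAAG read on the other strand, 47 to 41 bases before the start.

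Mrpl52: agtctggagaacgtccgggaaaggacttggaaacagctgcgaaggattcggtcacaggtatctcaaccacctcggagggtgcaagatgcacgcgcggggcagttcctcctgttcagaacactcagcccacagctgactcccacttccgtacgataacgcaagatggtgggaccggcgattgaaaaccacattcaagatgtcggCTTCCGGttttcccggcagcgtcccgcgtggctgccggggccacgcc

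Short stretches with up to 10 bases on each side of a match show the same letters before the start of other members that fell. The ETS core lies 17 to 11 bases before the start of Mrpl58, 19 to 13 before that of Mrpl3 and 53 to 47 before that of Mrpl22. In the small subunit it lies 48 to 42 bases before the start of Mrps27 and 11 to 5 before that of Mrps22. Matches before the start of Mrpl17 and Mrps26, which also fell, are not shown. The ETS core also lies before the start of members that did not pass the test, not shown either. These are Mrpl18, Mrpl27, Mrpl34, Mrpl43, Mrpl48, Mrpl51, Mrps16, Mrps18a and Mrps18c.

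Mrpl58 (chr11:115403725-115403751, plus strand): tggcggaccgCCGGAAGagtgagcacc
Mrpl3 (chr9:105053239-105053265, plus strand): gagaaacggaCCGGAAGtggcccggct
Mrpl22 (chr11:58171601-58171627, plus strand): ttttccggtcCCGGAAGccggcctcgg
Mrps27 (chr13:99344728-99344754, plus strand): ggtaggaccaCTTCCGGcggaggcggg
Mrps22 (chr9:98601680-98601700, minus strand): acctctcgagCCGGAAGttgc

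The core of the site of NRF1, a transcription factor known for nuclear genes of mitochondrial function, has the letters GCGCATGCG. It was found 11 to 3 bases before the start of Mrpl17 and 224 to 216 before that of Mrps18b, there on the other strand. It also lies before the start of Mrpl22, which fell, and of Mrpl9, Mrpl10, Mrpl32 and Mrpl39, which did not pass the test. All 250 bases before the start of Mrps18b lie in exons of Ppp1r10, and 142 of those before Mrps27 in exons of Ptcd2. The capitals below mark the NRF1 core.

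Mrpl17 (chr7:105811088-105811108, minus strand): ccgagttactGCGCATGCGtc
Mrps18b (chr17:35916646-35916674, minus strand): aacggcccgaCGCATGCGCactgggagca

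Over the whole windows and both strands, the ETS core was found in 25 of 68 members (36.8%), against 21.6% of the 8824 tested protein-coding genes with a window and 8.86% of all 32851 windows. The YY1 core AAGATGGC was found in 12 members (17.6%), against 5.75% of those genes and 2.75% of windows, and the NRF1 core in 7 (10.3%), against 4.45% and 1.75%. The E-box CACGTG, the kind of site that MYC binds, was found in 5 members (7.35%), against 12.1% and 7.15%. None of the 4 cores contains another, although the end of the ETS core can run into the YY1 core, and 34 members held at least 1 of these 2. Among members with a window, the ETS core was present in 12 of the 26 that fell and in 13 of the 41 that did not pass the test. The YY1 core was present in 4 of the 26 (15.4%) and 8 of the 41 (19.5%). For the NRF1 core the numbers were 3 (11.5%) and 4 (9.76%), and for the E-box 2 (7.69%) and 3 (7.32%). These shares were not tested. The window of Mrpl14, the member that rose, held none of the 4 motifs, and all 250 bases before its start lie within exons of the neighbouring gene Tmem63b. A match describes letters and not a bound site.

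With trametinib, 18 of 48 large-subunit members fell, 1, Mrpl14, rose and 29 did not pass the test. In the small subunit 11 of 29 members fell, none rose and 18 did not pass. Among the members that fell, a group whose smallest falls the threshold sets, the fall ran from 15.8% to 50.4% in the large subunit, with a median of 28.4%, and from 16.6% to 51.6% in the small subunit, with a median of 28.5%. A difference between the subunits was not tested. Mrpl57 of the large subunit fell by 50.4% and Mrps28 of the small subunit by 51.6%. In bulk samples such as these, fewer cells of a type and less RNA per cell cannot be told apart.

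These counts rest on edgeR's quasi-likelihood test with Benjamini-Hochberg adjustment over all 11286 genes tested, at an adjusted p under 0.05. Trametinib changed 34.3% of all genes tested, 18.4% lower and 15.8% higher. The members that fell made up 37.5% of the large and 37.9% of the small subunit, and the member that rose 2.08% of the large subunit. Groups did not overlap, with every trametinib library below every vehicle library, in 21 of 48 large-subunit and 15 of 29 small-subunit members, where 25.9% of all genes tested had this order. The reverse order was found in 2 large-subunit members and no small-subunit member, against 23.4% of all genes tested. The number of small-subunit members that rose was likewise 0 at an unadjusted p under 0.05 by edgeR. It was also 0 at an adjusted p under 0.05 by DESeq2 and by limma-voom. All 77 members passed the filter on low counts, and the groups of all 30 members that passed the test were fully separate. Among all genes tested, the same held for 2071 of the 2082 that fell and 1772 of the 1787 that rose.

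The median log2 fold change, trametinib over vehicle, was −0.16 in the large subunit and −0.17 in the small subunit, against −0.01 over all genes tested. In the large subunit 32 members had a negative and 16 a positive log2 fold change, and in the small subunit 25 had a negative and 4 a positive one. The 29 large-subunit members that did not pass ran from −0.30 to 0.22 with a median of 0.00, and the 18 of the small subunit from −0.24 to 0.26 with a median of −0.11. Leaving out single libraries moved the counts of calls. The large-subunit members that fell numbered 10 without vehicle 1, 8 without vehicle 2 and 8 without trametinib 1, or 20.8%, 16.7% and 16.7% of the subunit, where 12.3%, 12.8% and 11.9% of all genes tested were lower in the same fits. Those of the small subunit numbered 6 (20.7%), 5 (17.2%) and 6 (20.7%) in these fits, 6 (20.7%) without trametinib 2, where 12.7% of all genes were lower, and 7 (24.1%) by DESeq2, against 10.6%. All 29 members that fell kept a negative log2 fold change under every alternative tried.

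**Figure D1:**
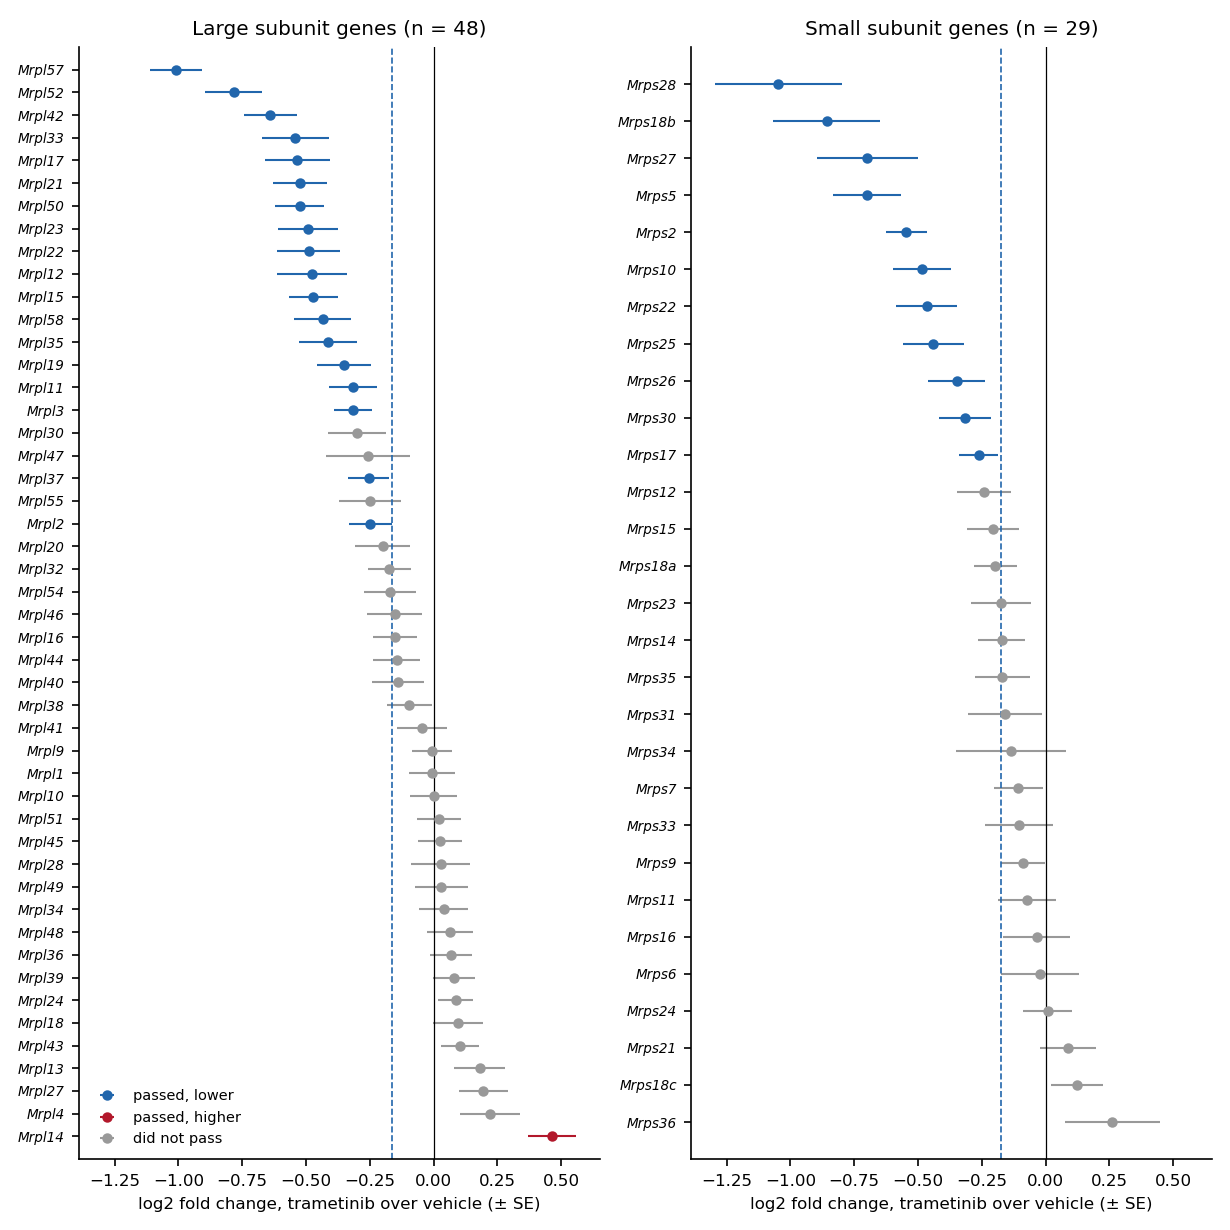
Log2 fold change of each member (trametinib over vehicle, point ± SE, edgeR fit over 3 libraries per group), large subunit on the left and small subunit on the right, ordered by value, with the median of each subunit as a dashed line. Blue points passed the test and were lower (18 and 11 genes), the red point, Mrpl14, was higher, and grey points did not pass.

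Summed over the large subunit, the members took 939.0, 960.7 and 866.7 CPM in vehicle 1, 2 and 3, and 837.6, 854.9 and 819.8 CPM in trametinib 1, 2 and 3. The lowest vehicle library and the highest trametinib library lay close together, but the groups did not overlap. Summed over the small subunit, they took 400.9, 416.4 and 375.2 CPM with vehicle and 340.6, 336.1 and 341.9 CPM with trametinib. Here the trametinib libraries lay within a narrow band below all 3 vehicle libraries.

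**Figure D2:**
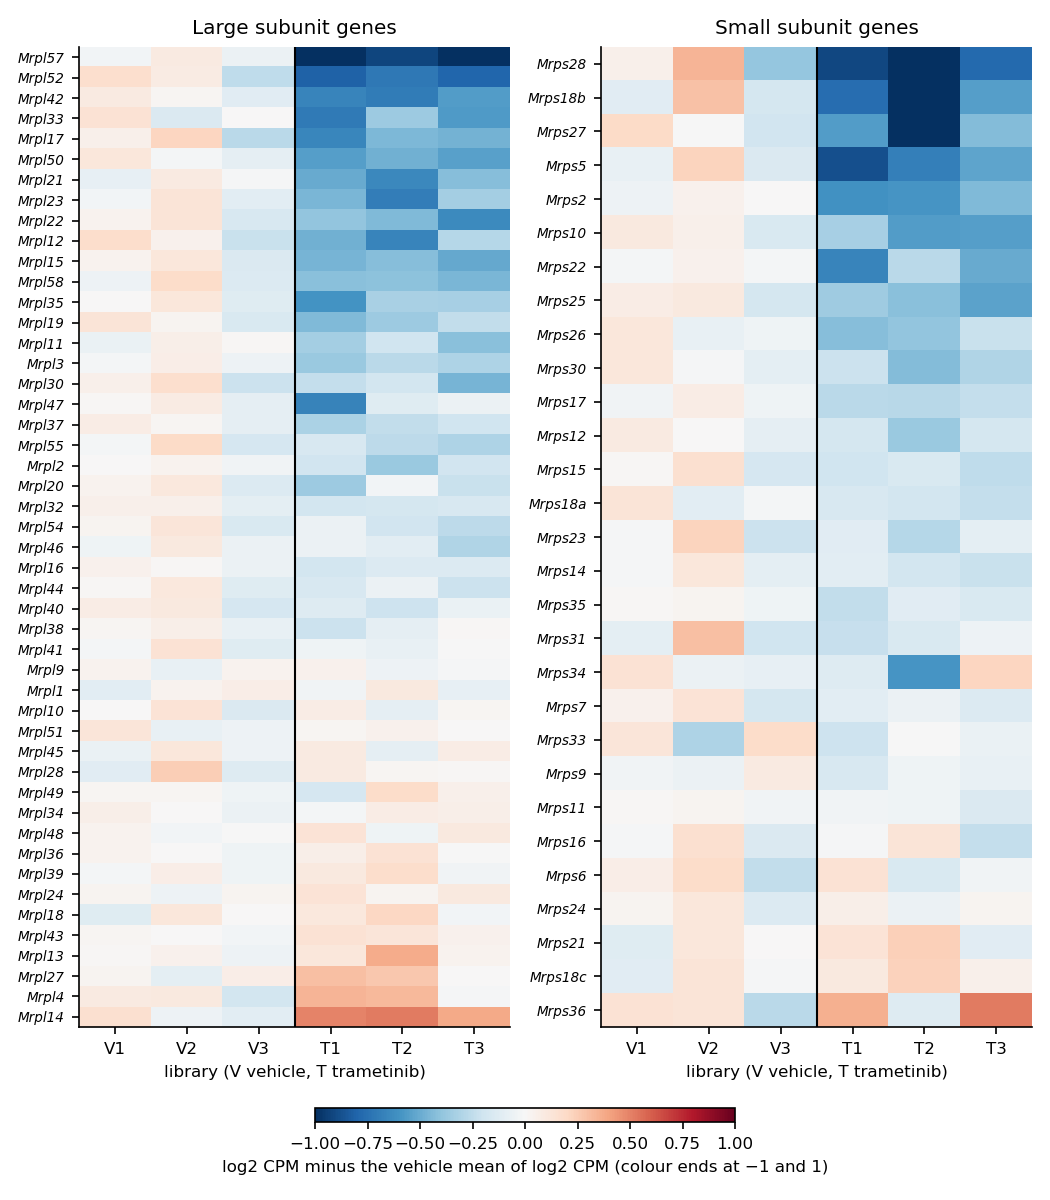
Log2 CPM of each member (rows) in each of the 6 libraries (columns), relative to the mean of the vehicle libraries, with colour ends at −1 and 1. Rows are ordered by log2 fold change within each subunit, so that the genes that fell are blue in the 3 trametinib columns at the top and Mrpl14 is red in them at the bottom of the left panel.

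Among large-subunit proteins found only in mitochondria, Mrpl57 had the lowest log2 fold change of the large subunit. The gene (ENSMUSG00000021967, chromosome 14, 57826234 to 57829296) had 13.9, 15.1 and 13.6 CPM with vehicle and 6.74, 7.47 and 6.85 CPM with trametinib. Every trametinib library lay at about the same level, far below all vehicle libraries. Mrpl57 fell from 14.2 ± 0.798 to 7.02 ± 0.393 CPM (mean ± SD, n = 3), a log2 fold change of −1.01 with an SE of 0.10. Its adjusted p by edgeR was 0.000360.

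Mrpl52, a mitochondria-specific protein of the same subunit whose promoter is shown above, lies on chromosome 14 at 54426909 to 54429756. It had 42.0, 39.5 and 31.4 CPM with vehicle and 21.3, 22.8 and 21.5 CPM with trametinib. Vehicle 3 was the lowest vehicle library and still stood above all trametinib libraries. Its log2 fold change was −0.78 with an SE of 0.11 (adjusted p = 0.00123, edgeR). Per kilobase of its principal transcript, Mrpl52 had the highest vehicle level of all members, 90.0 ± 13.3 CPM per kb, where the median member had 11.7.

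Mrpl42 and Mrpl50, further proteins with no bacterial homologue, fell with little spread. Mrpl42 had 13.4, 12.7 and 11.6 CPM with vehicle and 7.92, 7.74 and 8.52 CPM with trametinib, a log2 fold change of −0.64 with an SE of 0.10 (adjusted p = 0.00214, edgeR). Mrpl50 had 16.2, 14.8 and 14.1 CPM with vehicle and 10.2, 10.8 and 10.3 CPM with trametinib, a log2 fold change of −0.53 with an SE of 0.10 (adjusted p = 0.00359, edgeR). In both genes the lowest vehicle library was well above the highest trametinib library. Mrpl57, Mrpl52, Mrpl42 and Mrpl50, with Mrps2 of the small subunit, were the 5 members whose call held in all 14 alternatives.

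Mrpl33 and Mrpl17 are homologues of bacterial large-subunit proteins. Mrpl33 had 11.8, 9.60 and 10.6 CPM with vehicle and 6.51, 8.28 and 7.18 CPM with trametinib, a log2 fold change of −0.54 with an SE of 0.13 (adjusted p = 0.0126, edgeR). The groups stood apart by little more than 1 CPM, between vehicle 2 and trametinib 2. Mrpl33 did not pass without vehicle 1 (adjusted p = 0.0559) or without trametinib 1 (0.0566). Mrpl17 had 24.0, 26.8 and 19.2 CPM with vehicle and 14.7, 16.9 and 16.7 CPM with trametinib, a log2 fold change of −0.54 with an SE of 0.13 (adjusted p = 0.0120, edgeR). Vehicle 3 was again the lowest vehicle library, and the call was lost without trametinib 1 (adjusted p = 0.0594).

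The stalk of the large subunit, where translation factors dock, is built from Mrpl10, Mrpl11 and copies of Mrpl12. Of these, Mrpl11 and Mrpl12 passed the test as lower and Mrpl10 did not pass. Mrpl12 had 15.9, 14.6 and 12.1 CPM with vehicle and 10.1, 8.92 and 11.6 CPM with trametinib, a log2 fold change of −0.48 with an SE of 0.14 (adjusted p = 0.0263, edgeR). Vehicle 3 and trametinib 3 nearly met. Mrpl11, with 15.1, 16.5 and 16.0 CPM against 12.5, 13.8 and 11.9 CPM, had a log2 fold change of −0.32 with an SE of 0.09 (adjusted p = 0.0300, edgeR). Mrpl10, which anchors Mrpl12, had 27.7, 30.2 and 25.0 CPM with vehicle and 29.0, 25.9 and 28.0 CPM with trametinib, with overlapping groups and a log2 fold change of 0.00 (SE 0.09). Whether these genes differ from each other in response was not tested. The Mrpl12 call was lost without vehicle 1 (adjusted p = 0.102), vehicle 2 (0.0756), trametinib 1 (0.0852) or trametinib 2 (0.0964). The Mrpl11 call was lost by DESeq2 (0.0921) and without vehicle 1 (0.0573), vehicle 2 (0.106), trametinib 1 (0.0988) or trametinib 3 (0.0787).

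Mrpl3, which lies near the peptidyl transferase centre, had 27.7, 29.4 and 27.0 CPM with vehicle and 21.7, 23.2 and 22.6 CPM with trametinib, a log2 fold change of −0.32 with an SE of 0.08 (adjusted p = 0.0125, edgeR). Its libraries varied little within each group. Mrpl58, a peptidyl-tRNA hydrolase that is built into the ribosome and rescues stalled ones, had 12.0, 14.2 and 11.4 CPM with vehicle and 9.34, 9.35 and 9.08 CPM with trametinib, a log2 fold change of −0.43 with an SE of 0.11 (adjusted p = 0.0168, edgeR). The 3 trametinib libraries were nearly equal. Without vehicle 2 or trametinib 1, the adjusted p became 0.0545 or 0.0575 for Mrpl3 and 0.0706 or 0.0568 for Mrpl58.

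Other large-subunit members did not pass the test. Mrpl45, which binds the ribosome to the inner membrane, had 28.6, 32.5 and 29.0 CPM with vehicle and 31.9, 28.2 and 31.6 CPM with trametinib. The groups overlapped, and the log2 fold change was 0.03 with an SE of 0.09 (adjusted p = 0.840, edgeR). Mrpl44, which resembles RNase III, had 19.2, 20.5 and 17.6 CPM against 17.1, 18.3 and 16.4 CPM, also with overlap, and a log2 fold change of −0.14 with an SE of 0.09 (adjusted p = 0.251, edgeR).

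Mrpl14 was the member that rose. This homologue of a bacterial protein lies at the face of the large subunit that meets the small one (chromosome 17, 45686322 to 45698495). It had 18.5, 16.0 and 15.4 CPM with vehicle and 23.4, 23.8 and 21.6 CPM with trametinib. All trametinib libraries were above all vehicle libraries, and the log2 fold change was 0.46 with an SE of 0.09 (adjusted p = 0.00597, edgeR). The first exon of Mrpl14 shares 106 bases with Tmem63b on the opposite strand, and Tmem63b rose too, with a log2 fold change of 0.64 (adjusted p = 0.00635, edgeR). Because the strand setting of the counting is not given in the sources used here, the part of those shared bases in the rise of Mrpl14 was not tested. With the replicate number as a block, a second large-subunit gene, Mrpl4, passed as higher (log2 fold change 0.22, adjusted p = 0.0312). Without trametinib 3, Mrpl4 and Mrpl27 passed as higher beside Mrpl14, with adjusted p of 0.0474 and 0.0348.

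In the small subunit, Mrps28 had the lowest log2 fold change and also the fewest counts of all members. The gene (ENSMUSG00000040269, chromosome 3, 8802146 to 8923918) encodes a relative of bacterial S1. It had 4.26, 5.19 and 3.13 CPM with vehicle and 2.19, 1.51 and 2.40 CPM with trametinib. Replicates spread more than in most members, but the groups were separate. Mrps28 fell from 4.20 ± 1.03 to 2.03 ± 0.466 CPM (mean ± SD, n = 3), with a log2 fold change of −1.05 and an SE of 0.25 (adjusted p = 0.0117, edgeR).

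Mrps18a, Mrps18b and Mrps18c are 3 nuclear genes related to bacterial S18, of which Mrps18c is the closest functional counterpart and Mrps18a encodes a protein that sits in the large subunit. Mrps18b had 7.40, 9.82 and 7.08 CPM with vehicle and 4.73, 3.23 and 5.46 CPM with trametinib. Vehicle 2 was high and trametinib 2 low, and the groups did not overlap. It fell, with a log2 fold change of −0.86 and an SE of 0.21 (adjusted p = 0.0134, edgeR), and 638 of its 2089 exon bases overlap the gene model Gm16279. Mrps18a had 30.1, 25.5 and 27.1 CPM against 24.6, 24.2 and 23.3 CPM, groups that did not overlap, but its log2 fold change of −0.20 with an SE of 0.09 did not pass (adjusted p = 0.105, edgeR). Mrps18c had 11.5, 13.6 and 12.4 CPM against 13.3, 14.6 and 12.9 CPM, with overlap, and a log2 fold change of 0.12 with an SE of 0.10 (adjusted p = 0.381, edgeR). Of the 3 relatives only Mrps18b passed the test, and differences between them were not tested.

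Mrps5 and Mrps2, both homologues of bacterial small-subunit proteins, lie on chromosome 2. Mrps5 had 15.3, 18.8 and 14.5 CPM with vehicle and 8.75, 10.0 and 11.1 CPM with trametinib, a log2 fold change of −0.70 with an SE of 0.13 (adjusted p = 0.00435, edgeR). Mrps2 had 29.7, 31.7 and 30.9 CPM with vehicle and 20.2, 20.4 and 22.6 CPM with trametinib, a log2 fold change of −0.55 with an SE of 0.08 (adjusted p = 0.00138, edgeR). In both, every vehicle library was clearly higher than every trametinib library, and Mrps2 had the smaller SE.

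Mrps27, an RNA-binding protein of the pentatricopeptide type found only in mitochondria, had 8.19, 7.14 and 6.27 CPM with vehicle and 4.85, 3.17 and 5.29 CPM with trametinib. Vehicle 3 and trametinib 3 were less than 1 CPM apart, and trametinib 2 was the lowest library. The log2 fold change was −0.70 with an SE of 0.20 (adjusted p = 0.0246, edgeR), and 506 of its 2093 exon bases overlap 6430562O15Rik. The Mrps27 call was lost without vehicle 1 (adjusted p = 0.0934), vehicle 2 (0.0623), trametinib 1 (0.0582) or trametinib 2 (0.0617). Mrps10, a homologue of a bacterial protein, had 14.2, 13.7 and 11.9 CPM against 10.5, 8.98 and 9.02 CPM and fell with a log2 fold change of −0.48 and an SE of 0.11 (adjusted p = 0.0114, edgeR).

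Mrps12, a protein of the decoding centre, had 12.3, 11.6 and 10.8 CPM with vehicle and 10.2, 8.92 and 10.2 CPM with trametinib. The groups did not overlap, but the log2 fold change of −0.24 with an SE of 0.11 did not pass (adjusted p = 0.111, edgeR). Mrps30, whose protein is found in the large subunit despite its symbol, had 16.3, 15.0 and 14.1 CPM against 13.0, 11.2 and 12.3 CPM, with a log2 fold change of −0.32 and an SE of 0.10 (adjusted p = 0.0394, edgeR). That call did not hold by DESeq2 (adjusted p = 0.108) or without vehicle 1 (0.148), vehicle 2 (0.0934), trametinib 1 (0.0623), trametinib 2 (0.134) or trametinib 3 (0.0711). Mrps36, whose protein was later assigned to the 2-oxoglutarate dehydrogenase complex, had 7.40, 7.31 and 5.57 CPM against 8.58, 6.13 and 9.64 CPM. Its groups overlapped, and it had the highest log2 fold change of the small-subunit symbols, 0.26 with an SE of 0.19 (adjusted p = 0.309, edgeR).

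**Figure D3:**
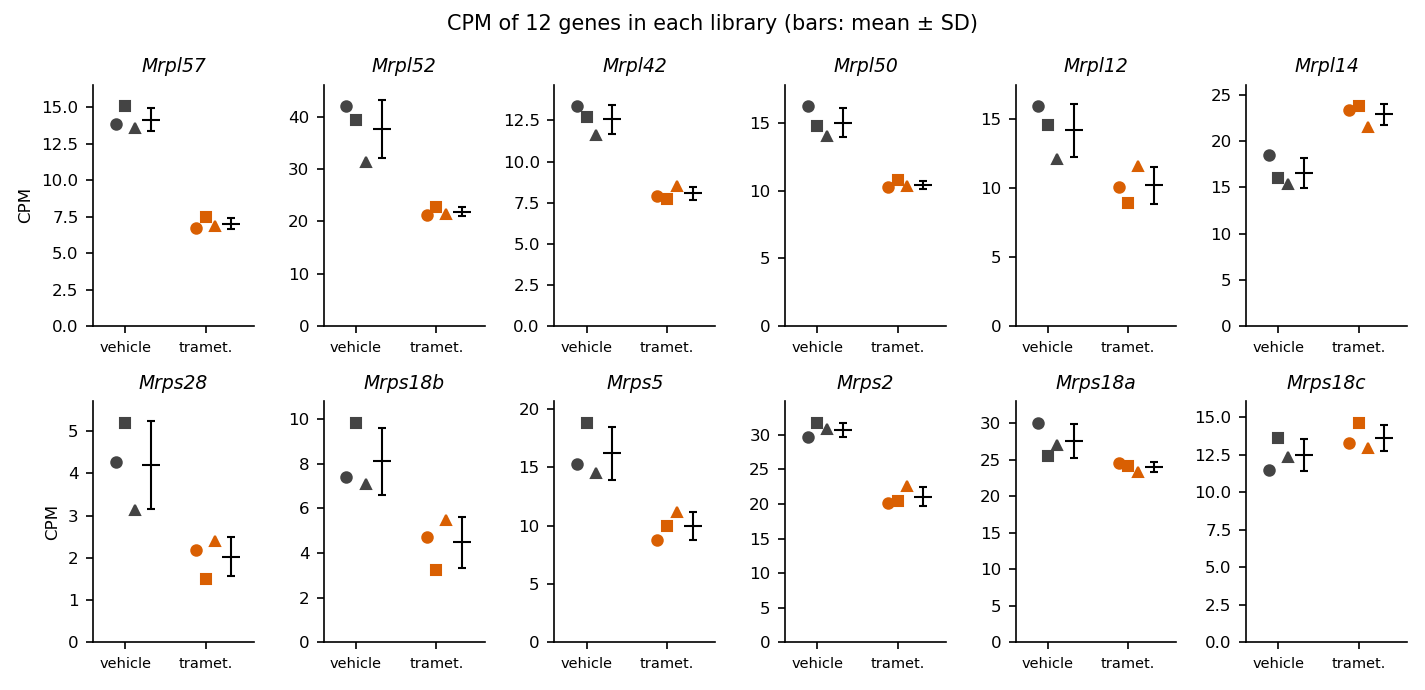
CPM of 12 members in each library (y axes start at 0; circles, squares and triangles are replicates 1, 2 and 3; grey is vehicle and orange is trametinib; black bars are the mean ± SD). Trametinib points lie below the vehicle points in Mrpl57, Mrpl52, Mrpl42, Mrpl50, Mrpl12, Mrps28, Mrps18b, Mrps5, Mrps2 and Mrps18a, above them in Mrpl14, and overlap them in Mrps18c.

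Members were also counted by place in the ribosome, with Mrps18a and Mrps30 moved to the large subunit and Mrps36 left out. Then 19 of 50 large-subunit genes (38%) fell, 1 (2%) rose, and 10 of 26 small-subunit genes (38.5%) fell. Of all genes tested, 18.4% were lower and 15.8% higher. Large-subunit members with a bacterial homologue fell in 12 of 30 cases (40%) and those found only in mitochondria in 6 of 18 (33.3%). In the small subunit, by place, the counts were 5 of 16 (31.25%) and 5 of 10 (50%). The last 5 include Mrps18b, which was placed there although it is related to bacterial S18. These splits were not tested against each other. Exons of 32 members share bases with another annotated gene. Among members without such sharing, 12 of 27 in the large (44.4%) and 6 of 18 in the small subunit (33.3%) fell and none rose.

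Other mitochondrial ribosomal proteins carry symbols that the choice of members did not include. Of 5 such genes, 3 fell: Ptcd3, a small-subunit protein at the mRNA entry, with a log2 fold change of −0.42 (adjusted p = 0.0201), Chchd1 of the small subunit with −0.34 (0.0405), and Gadd45gip1 of the large subunit with −0.63 (0.0386), all by edgeR. Ptcd3 had 14.2, 14.8 and 16.9 CPM with vehicle and 10.6, 10.8 and 12.8 CPM with trametinib, without overlap. Dap3, a GTP-binding protein of the small subunit, and Aurkaip1 stood at −0.06 (adjusted p = 0.678) and 0.06 (0.575) on the same scale. The Ptcd3 call was lost without trametinib 1 (0.0838) or trametinib 2 (0.0788). Chchd1 did not pass by DESeq2 (0.0952) or without vehicle 1 (0.103), vehicle 2 (0.130), trametinib 1 (0.0747), trametinib 2 (0.0594) or trametinib 3 (0.0954), and Gadd45gip1 did not by DESeq2 (0.0595) or without vehicle 1 (0.139), vehicle 2 (0.104), trametinib 1 (0.0642), trametinib 2 (0.123) or trametinib 3 (0.0570). The count of this list was thus 1 by DESeq2 and 0 to 3 as single libraries were left out. Of all genes tested, 18.4% were lower by edgeR, 10.6% by DESeq2 and 11.9% to 21.4% as single libraries were left out.

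In the main fit, the factors that build and serve these proteins in the mitochondrion passed as lower or did not pass. Of 25 genes of mitoribosome assembly, 8 (32%) fell and none rose, against 18.4% and 15.8% of all genes tested. Log2 fold changes were negative in 19 of the 25 and positive in 6. Every trametinib library lay below every vehicle library in 13 and above in 2, against 25.9% and 23.4% of all genes tested. The genes that fell were led by Noa1, a GTPase, Fastkd2, an RNA-binding protein, and Rcc1l, an exchange factor. Noa1 had 16.3, 15.2 and 16.9 CPM with vehicle and 9.64, 9.84 and 10.1 CPM with trametinib, a log2 fold change of −0.71 with an SE of 0.09 (adjusted p = 0.000778, edgeR). Rcc1l had 7.46, 7.37 and 6.70 CPM against 2.96, 3.23 and 4.01 CPM, a log2 fold change of −1.08 with an SE of 0.15 (adjusted p = 0.00112, edgeR). In both genes the groups lay far apart. For Fastkd2 the log2 fold change was −0.67 (adjusted p = 0.00110, edgeR). The number that rose was also 0 at an unadjusted p under 0.05 and by DESeq2 and limma-voom. The same held in the lists of proteins with other symbols, translation factors, transcription and RNA processing, and biogenesis regulators. Of all genes tested, 15.8% were higher by edgeR, 9.42% by DESeq2 and 16.0% by limma-voom. The count of 8 was 5 without vehicle 2 and 4 without trametinib 2, where 12.8% and 12.7% of all genes tested were lower.

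Of 12 translation factors tested, 5 (41.7%) fell, against 18.4% of all genes tested. Among them were the elongation factors Gfm1 (log2 fold change −0.42, adjusted p = 0.00865), Tufm (−0.40, 0.0103) and Tsfm (−0.46, 0.0117), all by edgeR. Tufm had 43.5, 48.1 and 38.6 CPM with vehicle and 32.7, 31.3 and 34.4 CPM with trametinib, without overlap. The count was 2 by DESeq2, where Tsfm had an adjusted p of 0.0512, and 3 without vehicle 1, vehicle 2, trametinib 1 or trametinib 2. Of all genes tested, 10.6% were lower by DESeq2 and 11.9% to 12.8% in the fits without those libraries. Of 21 tested genes of mitochondrial transcription and RNA processing, 7 (33.3%) fell, again against 18.4%. They were led by Elac2, which cuts the 3′ ends of tRNAs, with a log2 fold change of −0.58 (adjusted p = 0.00121, edgeR). Next came Tbrg4 with −0.82 (0.00130) and Lrpprc, which stabilises mitochondrial mRNAs, with −0.63 (0.00133). That count was 4 without vehicle 2, trametinib 1 or trametinib 2, where 12.8%, 11.9% and 12.7% of all genes tested were lower. No gene of either list rose, against 15.8% of all genes tested.

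Of 10 tested regulators of mitochondrial biogenesis, 1 (10.0%) fell, against 18.4% of all genes tested. The gene that fell was Pprc1, a coactivator related to PGC-1. It had 56.9, 59.4 and 51.3 CPM with vehicle and 26.0, 21.01 and 28.9 CPM with trametinib, groups that stood far apart, with a log2 fold change of −1.14 and an SE of 0.12 (adjusted p = 0.000396, edgeR). The transcription factor genes Nrf1 and Yy1, whose motifs were searched above, had log2 fold changes of −0.27 (adjusted p = 0.0676) and −0.15 (0.152). Myc had 0.985 ± 0.678 CPM with vehicle and 0.384 ± 0.304 CPM with trametinib (mean ± SD, n = 3), a log2 fold change of −1.37 with an SE of 0.74 (adjusted p = 0.195, edgeR), and Ppargc1a was too low to be tested. Without vehicle 3, 3 regulators passed as lower, Nrf1 among them (adjusted p = 0.0151), and 1 as higher. In that fit 21.4% of all genes tested were lower and 19.3% higher.

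**Figure D4:**
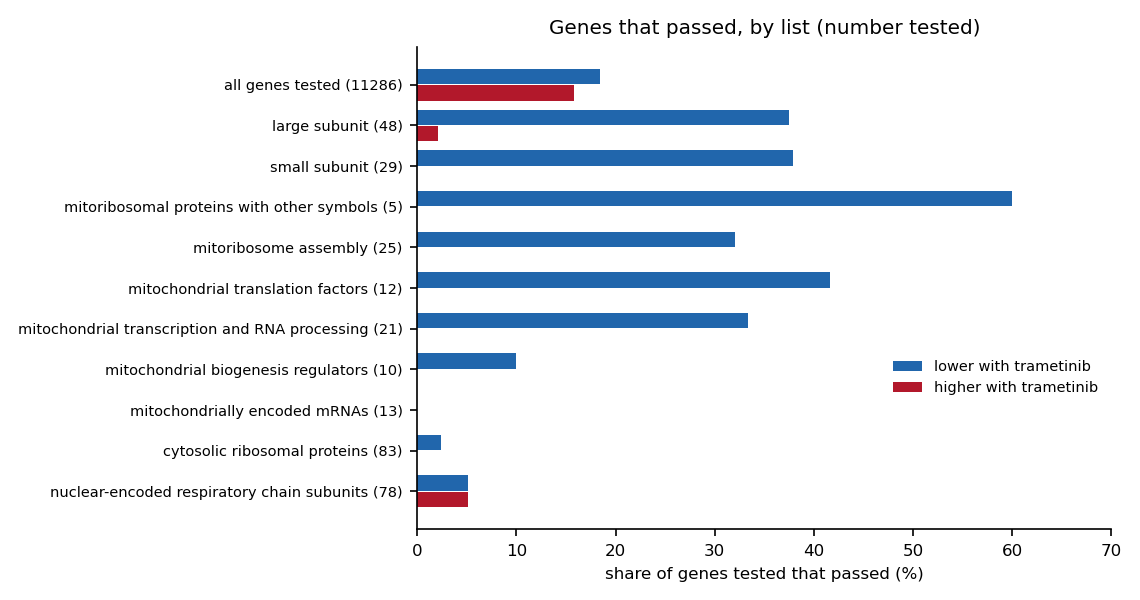
Share of tested genes that passed the test as lower (blue) or higher (red) with trametinib in each list, with the number of genes tested in brackets (edgeR, adjusted p under 0.05). The subunits of the mitochondrial ribosome stand at 37.5% and 37.9% lower, the cytosolic ribosomal proteins at 2.41%, and all genes tested at 18.4%.

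None of the 13 messenger RNAs that the mitochondrial genome encodes passed the test by edgeR, and the count was 0 at an unadjusted p under 0.05 and by DESeq2 and limma-voom too. Summed, they took 7128, 8660 and 7539 CPM with vehicle and 7963, 18530 and 8166 CPM with trametinib, so that the replicate 2 library was the highest of each group. An example is mt-Atp6, which had 1.79, 77.4 and 3.40 CPM with vehicle and 2.01, 1403 and 3.84 CPM with trametinib. Its log2 fold change was 4.09 with an SE of 3.16, and with such a spread a gene that did not pass may still differ. In mt-Cytb, mt-Nd1, mt-Nd2, mt-Nd5 and mt-Nd6, replicate 2 was not the highest library of both groups. For example, mt-Cytb had 862.3, 804.1 and 948.1 CPM with vehicle and 921.6, 854.3 and 856.5 CPM with trametinib. The source of this unevenness was not tested. In mt-Co1, vehicle libraries had 3835, 4782 and 4038 CPM and trametinib libraries 4482, 9509 and 4811 CPM, a log2 fold change of 0.57 with an SE of 0.32 (adjusted p = 0.221, edgeR). Lower values were seen in mt-Nd1 and mt-Nd2, subunits of complex I, in which every trametinib library was below every vehicle library. Mt-Nd1 had 527.7, 506.9 and 589.7 CPM against 484.9, 478.1 and 481.2 CPM, a log2 fold change of −0.17 (adjusted p = 0.132, edgeR). Mt-Nd2 had 266.8, 269.1 and 302.3 CPM against 255.3, 226.9 and 260.6 CPM, also −0.17 (adjusted p = 0.160, edgeR). With the replicate number as a block, 2 of the 13 passed as higher, mt-Atp8 (adjusted p = 0.0457) and mt-Nd4 (0.0102). Without the replicate 2 libraries, an alternative chosen after these values were seen, 5 large-subunit members (10.4%) and 1 small-subunit member (3.45%) still passed as lower, where 6.65% of all genes tested were lower, so the small subunit then lay below that background share. None passed as higher, and 1301 of all genes tested passed in either direction.

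Under that alternative the log2 fold changes of Mrps28, Mrps18b, Mrps5, Mrps10 and Mrpl14 were −0.69, −0.51, −0.58, −0.42 and 0.41. Their adjusted p values were 0.132, 0.110, 0.0594, 0.134 and 0.0966, so none of these 5 calls held with 2 libraries per group. The directions were as with all libraries.

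Other ribosomal and mitochondrial gene families differed in their counts. Of 83 genes with the symbols of cytosolic ribosomal proteins, a match that also takes Rps19bp1, whose protein binds one of them, 2 fell, Rps2 with a log2 fold change of −0.35 (adjusted p = 0.0146) and Rps18 with −0.28 (0.0274), and none rose by edgeR, with 3 higher at an unadjusted p under 0.05, 1 by DESeq2 and 0 by limma-voom. Of 78 nuclear genes for respiratory chain and ATP synthase subunits, 4 fell and 4 rose. The shares that fell were 2.41% and 5.13%, against 18.4% of all genes tested, and those that rose 0% and 5.13%, against 15.8%. The median log2 fold changes of these families were −0.02 and 0.01, where those of the mitochondrial ribosome were −0.16 and −0.17. These lists were not tested against each other.

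**Figure D5:**
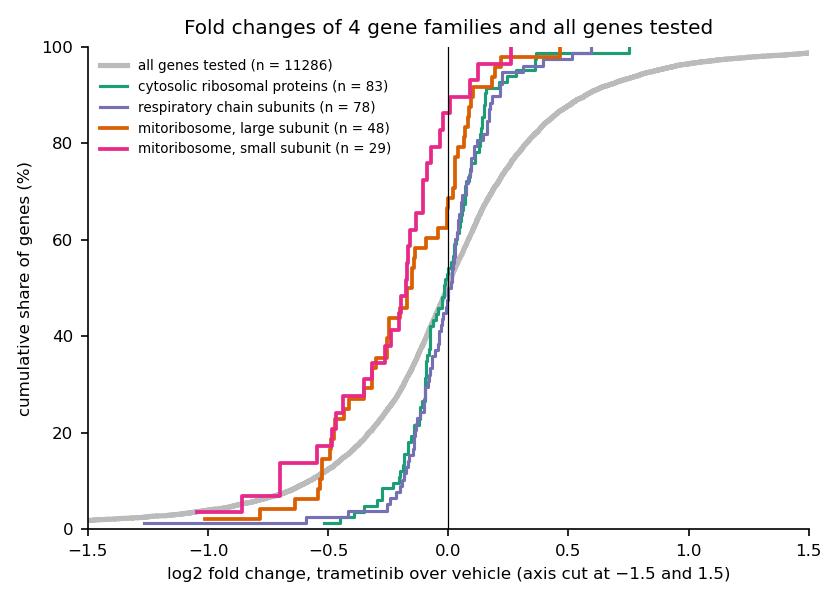
Cumulative share of genes (y axis, %) by log2 fold change, trametinib over vehicle (x axis, shown from −1.5 to 1.5), for all 11286 genes tested and 4 gene families. The curves of the large (median −0.16) and small subunit (−0.17) of the mitochondrial ribosome lie to the left of those of the cytosolic ribosomal proteins (−0.02) and the respiratory chain subunits (0.01).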

How the data were processed

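Libraries were made from total RNA after removal of ribosomal RNA, per the labels' protocols. The deposited table holds unnormalized counts of reads per gene in each library. The submitters' processing notes name the genome build mm10 and the tools featureCounts 1.6.4, HISAT2 2.1.0, R 3.6.0 and DESeq2 1.24.0. Which annotation was used, whether strand was read and how multiply mapped reads were handled is not given in the sources used here, so values of members that share exon bases with other genes, or have a pseudogene (3 members), are less certain.

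Of 25354 rows, 310 identical repeats were dropped. Of the 25044 genes left, 25033 were found in GENCODE M21, which gave symbols, biotypes and positions. The members, gene lists and tests were chosen with earlier results of these data known. Members were named if they were among the 6 that fell most or the 4 that rose most in their subunit, or belonged to a list of 15 with a known role. Of the other lists, all genes (proteins with other symbols) or the 3 with the smallest p were named, and single genes beside a count were named after their values were seen.

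Genes were kept by filterByExpr (minimum count 10), scaled by TMM and tested with edgeR 4.0.16 (robust quasi-likelihood fit on the group alone, with 4 residual degrees of freedom). P values were adjusted by Benjamini-Hochberg over all genes tested, with a threshold of 0.05. Each SE was derived from the log2 fold change and its F statistic. The procedure was run on simulated counts, with 50 genes changed at each fold. It recovered 1 of them at 1.25-fold, 19 at 1.5-fold, 42 at 2-fold and 48 at 4-fold, and called 10 unchanged genes. That run held 11187 genes, and a far smaller share of them was changed than the 34.3% that passed in the data. The adjustment depends on this share, so the recovered numbers do not carry over to the data, where Mrpl2 passed with a fall of 15.8%. How many changes of a given size the fit recovers in the data was not tested. CPM per kb used the length of the principal transcript, which includes UTRs. Motifs were searched as exact letters on both strands. 1 of the marker lists is not reported here.

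Both groups use the replicate numbers 1 to 3. Across all genes tested, deviations from the mean of the group correlated at 0.339, 0.393 and 0.285 for equal numbers. For unequal numbers they correlated at −0.0724 to −0.223. Across the members alone they correlated at 0.085, −0.178 and −0.256 for equal numbers and at −0.25 to 0.389 for unequal ones. Libraries with the same replicate number thus deviated together over all genes, a pattern not seen over the members alone. The labels do not state a pairing, and these values cannot settle whether there was one. A fit blocked on that number was an alternative. The other alternatives were DESeq2 size factors, TMM without the 10 most abundant and mitochondrial genes, other filters, DESeq2 1.42.0, voom in limma 3.58.1, leaving out each library, and leaving out the replicate 2 libraries. Tables and plots were made with R 4.3.3 and with SciPy 1.17.1, matplotlib 3.10.9, pandas 2.3.3 and NumPy 2.4.6 in Python 3.11.15.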

Additional observations from a re-analysis of the deposited data

How the results depend on the processing

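With 3 libraries per group and members at 335 to 4524 counts, a member that did not pass may still differ. The smallest fall that passed was 15.8%. The 2 scalings other than the main one moved the median log2 fold change of all genes tested by at most 0.0113. Of the 30 members that passed, 22 did so in all 7 other fits with 6 libraries, 12 also with each library left out, and 5 also without the replicate 2 libraries.

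With the replicate block 29 of the 30 members passed. Mrpl2 was lost (adjusted p = 0.0511, against 0.0499 without the block), Mrpl30 (0.00898, lower) and Mrpl4 (0.0312, higher) were gained, so that 2 large-subunit members were higher, and 2 mitochondrially encoded mRNAs were higher. No other call of a member changed. The block also gave 4837 genes called, 10 assembly genes lower and 10 genes of transcription and RNA processing lower, each within 1.5 times the count without it.

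Leaving out 1 library gave 2428 to 4663 genes called, 8 to 19 large-subunit members lower and 1 to 3 higher, and 5 to 12 small-subunit members lower. The small-subunit median ran from −0.26 to −0.17. The lists ran from 0 to 3 (other symbols), 4 to 9 (assembly), 3 to 4 (translation factors), 4 to 10 (transcription and RNA processing) and 1 to 3 (regulators) lower, with 0 to 1 regulators higher. Without the replicate 2 libraries, 1301 genes, 5 large-subunit and 1 small-subunit members, 3 assembly and 4 transcription and RNA processing genes were lower or, for all genes, called. No translation factor, no protein with another symbol (0 in both lists) and 0 large-subunit members as higher passed there. By DESeq2, 7 small-subunit members, 1 protein with another symbol and 2 translation factors were lower. Without members that share exons, 6 small-subunit members were lower and 0 large-subunit members higher. Among the genes named by the rule, signs turned for 3: Mrpl10 without a filter (−0.0029), without vehicle 3 (−0.067), trametinib 1 (−0.034) or trametinib 3 (−0.0082), Mrpl45 without vehicle 1 (−0.0058) or trametinib 1 (−0.0030), and Dap3 without trametinib 3 (0.0089). With libraries left out they ran from −0.067 to 0.114 (Mrpl10), −0.0058 to 0.142 (Mrpl45) and −0.13 to 0.0089 (Dap3). Apart from the smaller number of libraries or genes, the cause was not tested.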

Other observations

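Vehicle 3 was the lowest of the vehicle libraries in 58 of the 77 members (75.3%), against 40.7% of all genes tested. The median of log2 CPM minus the vehicle mean over the members was 0.02, 0.08 and −0.09 in vehicle 1, 2 and 3, and −0.18, −0.18 and −0.19 in trametinib 1, 2 and 3. Without vehicle 3 the median log2 fold change was −0.22 in the large and −0.26 in the small subunit.

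In the large subunit, members with more reads tended to have higher log2 fold changes. Spearman's rho between mean CPM and log2 fold change was 0.526 over the 48 large-subunit members and 0.126 over the 29 small-subunit members, and 0.288 and 0.331 when the vehicle level per kilobase took the place of the mean CPM. These are descriptions across genes that share the same 6 libraries. Per kilobase of the principal transcript, the median vehicle level was 12.8 CPM per kb in the large and 7.51 CPM per kb in the small subunit. The lowest was 1.602 CPM per kb in Mrps25. In that gene 4590 of 6576 exon bases overlap Nr2c2, and how reads in shared bases were counted is not known here.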
